A study of Homo sapiens with 6 samples.

Results

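Of 169433 regions bound by estrogen receptor α (ERα) in at least 1 of 6 libraries, 13705 (8.09%) had their midpoint within 1 kb of an end of a protein-coding gene. These gene-end regions were found by merging the peaks of the 6 lists on chromosomes 1 to 22 that overlapped by 1 bp or more, and by comparing each midpoint with the spans of 19126 protein-coding genes. The rule used position alone and no measured signal. By that rule 9220 regions (67.3%) lay near a transcription start, 1925 near a terminus, and 2560 near an end of a gene whose direction was not known here. A start here is the outer end of the whole span where the gene begins, and starts inside a span were not used. The other 155728 regions are the comparison set, which can hold regions at such inner starts.

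The libraries come from chromatin immunoprecipitation and sequencing of ERα in MDA-MB-453, an established human breast cancer line that has androgen receptor and no functional ERα of its own. The cells expressed the Y537S, the K303R or the wild-type (WT) receptor from a doxycycline-inducible construct. All 6 libraries are from cells given 2 µg/mL doxycycline for 2 days, with 1 nM estradiol (E2) or with no E2, in medium with serum whose hormone content the labels leave unstated. The 6 groups are Y537S with E2, Y537S with no E2, K303R with E2, K303R with no E2, WT with E2 and WT with no E2, each with 1 library. No difference below therefore has a replicate check. Intervals are at the 95% level and hold counting error alone, and a called change is one between 2 libraries rather than between conditions. The Y537S lists carry another date-like tag in their peak names than the WT and K303R lists, so where Y537S is compared with WT the receptor, the line and a possible batch cannot be told apart.

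ERα is a nuclear receptor that binds DNA as a dimer, classically at a palindrome of the half-site GGTCA, and that can also be held at DNA by other factors. In breast cancer cells most of its binding lies in distal enhancers, many of them opened by the pioneer factor FOXA1. Promoters form a smaller class, often rich in GC and open in many cell types. Y537S lies in the ligand-binding domain and gives a receptor that is active with no hormone, while K303R lies in the hinge region.

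Reading the promoter letters showed the classical palindrome in few windows, whether bound or not. The RefSeq table of GRCh38.p14 promoters holds a window for 15101 of the genes, from 250 bases before to 50 bases after the start. Of these windows, 6728 overlapped a gene-end region. Only the windows were read, so the parts of a region outside its window were not searched. The exact palindrome GGTCANNNTGACC, which is its own reverse complement, was in 5 of those windows (0.0743%). It was in 1 of the 8373 windows that no gene-end region overlapped (0.0119%). The 250 bases before the start are shown for 3 of the 5, 5′ to 3′ on the gene's strand, with the palindrome in capitals. They belong to ZNF669, a zinc finger gene (chr1:247104357-247104606, minus strand), MROH7 (chr1:54641536-54641785, plus strand) and the homeobox gene DUXB (chr16:75701462-75701711, minus strand).
ZNF669: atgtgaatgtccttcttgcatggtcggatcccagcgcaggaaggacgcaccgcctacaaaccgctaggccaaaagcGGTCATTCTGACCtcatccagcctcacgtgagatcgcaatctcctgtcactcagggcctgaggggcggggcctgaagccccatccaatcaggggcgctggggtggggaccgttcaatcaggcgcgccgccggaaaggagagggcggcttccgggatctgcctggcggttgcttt
MROH7: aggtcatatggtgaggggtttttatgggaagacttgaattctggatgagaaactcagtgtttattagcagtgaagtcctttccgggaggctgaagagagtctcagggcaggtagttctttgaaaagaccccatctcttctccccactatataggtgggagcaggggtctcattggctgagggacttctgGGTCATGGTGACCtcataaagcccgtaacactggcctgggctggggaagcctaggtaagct
DUXB: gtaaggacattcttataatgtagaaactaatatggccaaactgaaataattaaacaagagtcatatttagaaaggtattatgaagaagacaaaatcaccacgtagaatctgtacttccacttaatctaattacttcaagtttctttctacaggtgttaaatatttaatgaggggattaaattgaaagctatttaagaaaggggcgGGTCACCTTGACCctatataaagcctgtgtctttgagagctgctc
These windows carried very different amounts of receptor. The number of sequenced fragments over a peak summit, called summit fragments here, was 205, 193, 244, 206, 224 and 218 at ZNF669 (Y537S with E2 and with no E2, K303R with E2 and with no E2, WT with E2 and with no E2). At MROH7, in the same order of libraries, it was 92, 93, 31, 37, 103 and 84. The DUXB region was weak and was listed in 3 libraries, with 10 fragments in Y537S with no E2, 13 in WT with E2 and 10 in WT with no E2. ZNF669 was thus near even across the libraries, while both K303R libraries were low at MROH7. CPHXL, another homeobox gene whose window holds the palindrome, had a region of 11 fragments in the WT list with no E2 and in no other list.

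Strong promoter regions also occurred where the window held half-sites alone, with the rest of the region not read. The next windows are those of PCYT1A, which encodes an enzyme of phosphatidylcholine synthesis (chr3:196287727-196287976, minus strand), and of the ring finger gene RNF224 (chr9:137227252-137227501, plus strand), with each GGTCA or its reverse complement TGACC in capitals. THSD4, a matrix protein gene (chr15:71096644-71096893, plus strand), was added after its values were seen because it ranked first, by the larger of its 2 ratios, among the gene-end regions lower in Y537S than in WT in both treatments.
PCYT1A: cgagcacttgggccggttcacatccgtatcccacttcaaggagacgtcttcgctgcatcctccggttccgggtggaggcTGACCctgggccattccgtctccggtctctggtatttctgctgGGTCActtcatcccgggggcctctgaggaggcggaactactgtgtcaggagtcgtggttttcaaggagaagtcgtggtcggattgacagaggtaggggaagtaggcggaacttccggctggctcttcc
RNF224: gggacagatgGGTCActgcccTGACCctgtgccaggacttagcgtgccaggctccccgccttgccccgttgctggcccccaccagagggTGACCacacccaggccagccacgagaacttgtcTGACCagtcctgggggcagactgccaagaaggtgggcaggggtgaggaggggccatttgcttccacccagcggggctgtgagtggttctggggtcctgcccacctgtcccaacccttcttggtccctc
THSD4: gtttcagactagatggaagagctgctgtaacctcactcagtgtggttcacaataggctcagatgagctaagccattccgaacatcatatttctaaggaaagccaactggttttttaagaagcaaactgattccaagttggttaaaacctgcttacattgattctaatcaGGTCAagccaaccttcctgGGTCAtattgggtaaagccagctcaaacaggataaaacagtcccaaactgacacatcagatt
PCYT1A held 346, 328, 383, 371, 384 and 384 summit fragments in the library order given above, the highest mean among the overlapped windows. RNF224 held 327, 314, 337, 302, 308 and 318. Neither was called changed in any comparison. THSD4 differed, with 54 and 47 fragments in Y537S, 146 and 144 in K303R and 203 and 201 in WT (E2 before no E2 in each line).

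A search that allowed 1 mismatch in the 10 fixed letters of the palindrome was added after the data were seen. It found a match in 0.832% of overlapped windows and in 0.585% of those not overlapped. Among the 200 overlapped windows with the most fragments the share was 3.5%. OXT, the oxytocin gene (chr20:3071370-3071619, plus strand), and TEX35 (chr1:178512859-178513108, plus strand) are shown because both were among the few gene-end regions that were higher with E2 in WT and in K303R. Capitals mark the match with 1 mismatch.
OXT: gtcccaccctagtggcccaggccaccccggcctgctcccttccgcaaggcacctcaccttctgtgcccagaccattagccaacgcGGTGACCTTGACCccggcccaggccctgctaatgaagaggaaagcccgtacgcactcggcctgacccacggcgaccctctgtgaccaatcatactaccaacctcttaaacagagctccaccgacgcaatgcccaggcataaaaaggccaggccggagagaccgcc
TEX35: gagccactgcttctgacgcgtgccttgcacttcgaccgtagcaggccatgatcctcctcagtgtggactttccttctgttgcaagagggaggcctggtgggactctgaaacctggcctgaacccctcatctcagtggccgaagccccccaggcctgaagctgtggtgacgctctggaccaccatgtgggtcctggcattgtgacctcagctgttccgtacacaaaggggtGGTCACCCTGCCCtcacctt
OXT had 119 and 89 fragments in Y537S, 128 and 57 in K303R and 139 and 66 in WT, each with E2 before no E2. TEX35 had 188 and 123 in Y537S, 148 and 61 in K303R and 110 and 56 in WT. In counts not scaled between libraries, both regions held more fragments with E2 than with no E2 in all 3 lines. Of the libraries with no E2 that of Y537S was the highest at both. Scaled as described below, the Y537S ratio of E2 to no E2 was 1.19 (0.897 to 1.58) at OXT and 1.36 (1.08 to 1.72) at TEX35. Neither Y537S ratio was called. The local background at OXT came to 13.8% to 28.9% of the fragments.

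Shorter motifs have fewer fixed letters than the palindrome and so occur more often in any window. Each is given beside its share in windows not overlapped. The GC box GGGCGG or its reverse complement CCGCCC was in 72.9% of overlapped windows and in 47.5% of those not overlapped (58.9% of all). The ETS site CCGGAAG or CTTCCGG was in 22.4% of overlapped windows and in 7.91% of those not overlapped (14.4% of all). The CRE core TGACG or CGTCA was in 36.7% and 23.1% (29.2% of all). GGTCA half-sites were in 37.4% of overlapped windows and in 34.5% of those not overlapped (35.8% of all), and in 48.0% of the 200 strongest. The forkhead site TGTTTAC or GTAAACA was in 2.32% of overlapped windows and in 2.89% of the rest (2.64% of all), and the AP-1 site TGANTCA was in 4.43% and 6.72% (5.70% of all). CCAAT or ATTGG was in 35.7% and 36.2% (36.0% of all). In the 200 strongest windows the GC box was in 79%, the ETS site in 15.5% and the CRE core in 31%. The forkhead site was in 1% of them, the AP-1 site in 5% and CCAAT in 28%. The half-site TGACC and the CRE core TGACG share their first 4 letters, and each arm of the palindrome is itself a half-site. GC content moved with these shares, with a median of 66.0% in overlapped windows and 59.3% in those not overlapped, and its part in them was not tested. A match of letters shows neither a binding site nor its use.

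ERα regions were concentrated at starts and not at termini. Per 200 bp, there were 14.2 regions per 100 starts in the first 200 bp downstream of the start, against a mean of 1.46 beyond 4 kb from it. For regions in all 6 lists the values were 6.52 and 0.636. Around termini no peak was seen. The highest bin within 5 kb held 2.15 regions per 100 termini, at 1400 to 1600 bp downstream, against a mean of 1.77 beyond 4 kb. Within 1 kb of starts, 4896 midpoints lay upstream and 5523 downstream, counting a region once for each start it lay near.

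**Figure D1:**
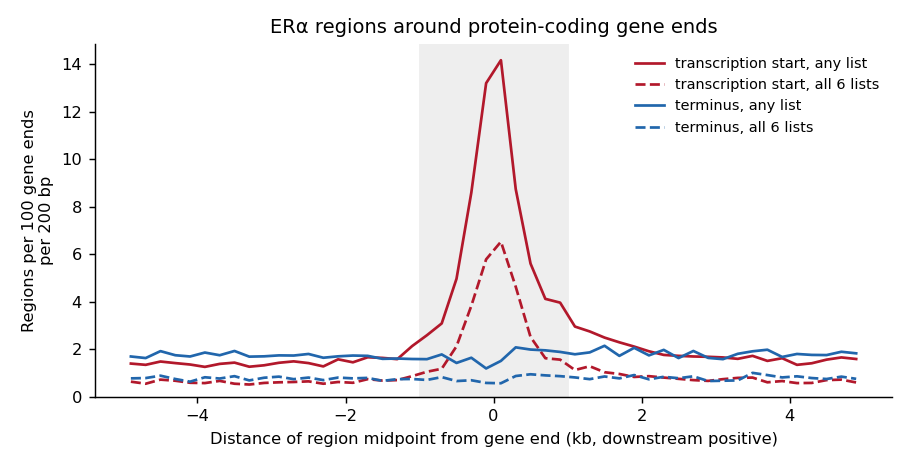
Number of ERα regions per 100 gene ends in 200 bp bins (y axis) against the distance of the region midpoint from the gene end in kb (x axis, downstream positive), for starts (red) and termini (blue) of 15101 genes, with solid lines for regions in any list and dashed lines for regions in all 6. The grey band marks the 1 kb that defines a gene-end region, and only starts show a peak, of 14.2 regions per 100 starts.

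Most protein-coding genes had such a region. In all, 11592 of 19126 genes (60.6%) had a region near an end in at least 1 list, and 6385 (33.4%) had one in all 6. Of the 15101 starts, 8492 (56.2%) had a region and 4493 (29.8%) had one in all 6 lists. Of the termini of the same genes, 2356 (15.6%) had a region and 1107 (7.33%) had one in all 6. At 1768 genes both ends had one. A region near 2 or more genes was found 2051 times (15.0% of gene-end regions), so a named gene is the nearest one and not a target shown by these data.

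Gene-end regions were broader than other regions and more often shared by all lists, yet held fewer fragments. Their median width was 564 bp (601 bp at starts, 464 bp at termini), against 446 bp for the other regions. They were in all 6 lists in 6113 cases (44.6%), against 59688 (38.3%) of the other regions, and in 1 list in 2641 cases (19.3%), against 33991 (21.8%). More than 1 peak of a single list was merged in 12.1% of gene-end regions and in 2.67% of the others. The median of the highest summit over the libraries was 21 fragments (20 at starts, 31 at termini), against 24 for the other regions. Regions near starts were thus the weak and broad part of the class, and those near termini were stronger than the other regions.

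Over all listed regions the lower signal of gene-end regions held in every library. Their median summit fragments were 25, 21, 22, 20, 22 and 22 in the library order given above, against 31, 26, 27, 24, 28 and 28 for the other regions of the same lists. Near starts the medians were 23, 19, 20, 19, 20 and 20, and near termini 40, 34, 36, 30, 34.5 and 33. Averaged over the 2 libraries of a line, the log2 ratio of gene-end to other medians was −0.31 in Y537S, −0.28 in K303R and −0.35 in WT (mean −0.31 ± 0.03, SD over 3 lines). All 3 lines had the same sign, for which an exact 2-sided sign-flip test gives p = 0.25, the smallest it can give. Medians of a list depend on how deep it reaches, and each list has its own lower limit.

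Gene-end regions were a larger share of the mutant lists than of the WT lists. They made up 9313 of 107304 regions (8.68%, Wilson interval 8.51 to 8.85) in Y537S with E2 and 9718 of 111606 (8.71%, 8.54 to 8.87) in Y537S with no E2. In K303R they were 8829 of 101901 (8.66%, 8.49 to 8.84) with E2 and 9708 of 100986 (9.61%, 9.43 to 9.80) with no E2. The WT lists had 8948 of 115424 (7.75%, 7.60 to 7.91) with E2 and 9840 of 119809 (8.21%, 8.06 to 8.37) with no E2. K303R with no E2 stood highest and WT with E2 lowest. The WT lists were also the longest, and the part of list length in these shares was not tested.

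**Figure D2:**
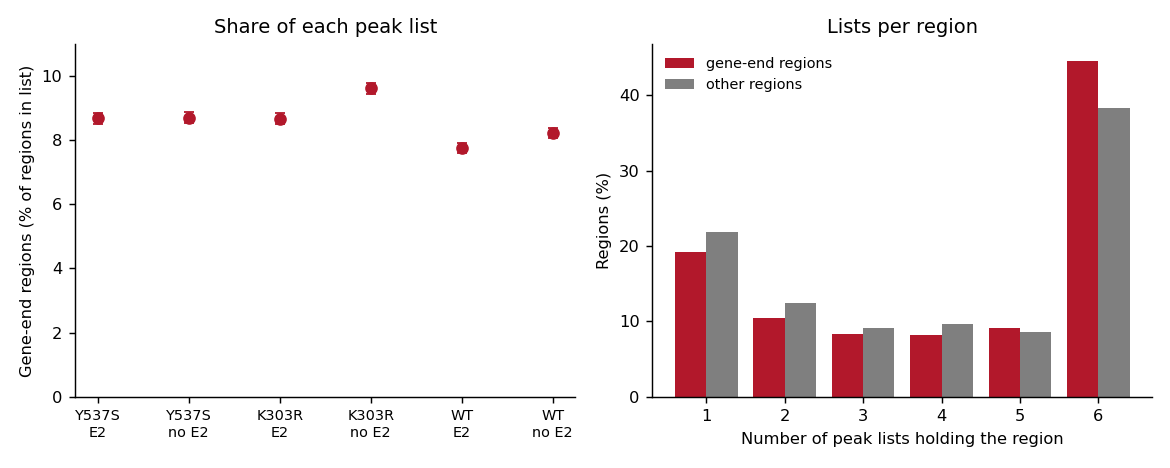
Left, gene-end regions as a percentage of the regions in each peak list (y axis) for the 6 libraries (x axis), with points for the share and bars for the 95% Wilson interval. Right, the percentage of gene-end regions (red) and of other regions (grey) on the y axis held by 1 to 6 lists on the x axis, where 44.6% of gene-end regions and 38.3% of the others are in all 6.

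Fewer gene-end regions were listed with E2 than with no E2 in every line. The difference was −405 in Y537S, −879 in K303R and −892 in WT, a mean of −725 (SD 277, exact sign-flip p = 0.25, the smallest possible). Near starts it was −389, −819 and −747, while near termini it was −1, 66 and −8 in Y537S, K303R and WT. Other regions changed by −3897 in Y537S, 1794 in K303R and −3493 in WT, so the K303R lists moved in opposite directions at gene ends and elsewhere. As a share of the list the gene-end regions changed by −0.03 percentage points in Y537S, −0.95 in K303R and −0.46 in WT (mean −0.48, SD 0.46, exact sign-flip p = 0.25). The regions that came and went were weak. In WT, 1058 gene-end regions were listed with E2 alone and 1950 with no E2 alone, each set with a median of 12 fragments, while 7890 were in both lists.

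Of the patterns across all lines, loss with E2 was more frequent at gene ends than gain. All 3 lists with no E2, and no other list, held 109 gene-end regions (0.795%), 87 of them near starts, against 308 of the other regions (0.198%). All 3 lists with E2, and no other, held 25 gene-end regions (0.182%), against 244 of the others (0.157%). Both WT lists alone held 101 gene-end regions (0.737%) and 2.30% of the others, whereas all lists but those of WT held 69 (0.503%) and 0.245% of the others.

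Examples of these patterns, chosen after their values were seen, lay on a raised local background. Absence from a list does not mean 0 fragments. The start region of LCN12, a lipocalin gene, had 65 fragments in Y537S, 63 in K303R and 58 in WT with E2, and was in no list with no E2. The region at the start of the tumor suppressor kinase gene STK11 had 22 fragments in Y537S, 33 in K303R and 26 in WT with no E2, over a local background of 5.72, 4.83 and 3.92, and was in no list with E2. CRIP2, a LIM domain gene, had 93 and 85 fragments in Y537S and 70 and 52 in K303R (E2 before no E2), over backgrounds of 21.2 to 31.3, and was in neither WT list. The background thus came to 29.8% to 32.3% of the fragments at LCN12 and 30.1% to 40.8% at CRIP2.

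Comparisons of signal used well-covered regions, those in all 6 lists with a mean of at least 50 summit fragments. Of the 13705 gene-end regions 2227 (16.2%) passed, and of the 155728 others 30573 (19.6%). Among starts 1259 (13.7%) passed and among termini 500 (26.0%). The values that follow describe those regions and not all gene-end regions. Their median summit fragments were 115, 102, 96, 79, 90 and 89 at gene ends in the library order given above, against 113, 99, 90, 73, 103 and 101 elsewhere. Among well-covered regions the gene-end median was thus the higher in the 4 mutant libraries and the lower in the 2 WT libraries. Ratios were divided by the median ratio of all 32800 well-covered regions, so a change is relative to the typical region. Regions were called when the ratio was at least 1.5-fold in either direction and 1 lay outside the exact counting interval at the 0.1% level.

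The strongest gene-end regions were near the top of the range in all 6 libraries, whose highest summits held 403 to 441 fragments. The highest mean was at the terminus of NAT9, an acetyltransferase gene, on chr17:74769580-74771488 (GRCh38), with 372, 362, 429, 420, 416 and 433 fragments in the library order given above. PCYT1A, whose promoter is shown above, was also among the 10 strongest. A region shared by USH1G, a hair cell scaffold gene, and the proton channel gene OTOP2 had 346 to 383 fragments. Others of the 10 lay at LGALS2 and CDC42EP1, MAMDC4, LOC124904102, IL24 and FCMR, SHANK2 and RPS6KL1, with means of 333 to 359. None of the 10 was called changed in any of the 7 comparisons, although LOC124904102 had a ratio to WT of 0.732 (0.624 to 0.857) in Y537S with E2 and of 1.38 (1.20 to 1.59) in K303R with no E2. Of the 10, 4 lay on chromosome 17.

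E2 moved few gene-end regions relative to the median region. In WT, 33 were called higher (1.48%) and 11 lower (0.494%), where 1.67% and 0.613% of all well-covered regions were. In K303R, 35 were called higher (1.57%) and 13 lower (0.584%), against 2.49% and 0.808% of all. In Y537S, 1 was called higher and 0 lower, against 0.0945% and 0.0732% of all. These shares were near or below those of all regions. Scaled by the lowest local background instead, calls with E2 in K303R numbered 263 higher and 1 lower at gene ends, where 14.1% and 0.0396% of all were. The median log2 E2 ratio of gene-end regions minus that of others was −0.01 in Y537S, −0.03 in K303R and −0.02 in WT (mean −0.02 ± 0.01, SD over 3 lines, exact sign-flip p = 0.25, the smallest possible). Near starts the median was −0.01 in Y537S, −0.06 in K303R and −0.03 in WT, and near termini 0.00, 0.05 and 0.01.

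A total of 9 gene-end regions were called higher with E2 in both WT and K303R (0.404% of the well-covered ones, against 154 regions or 0.470% of all), and 0 were called lower in both. The region at PRR36 had 104 and 77 fragments in Y537S, 63 and 22 in K303R and 47 and 14 in WT, each with E2 before no E2. Its E2 ratio was 3.31 (1.79 to 6.52) in WT, 2.37 (1.44 to 4.05) in K303R and 1.20 (0.887 to 1.64) in Y537S. Its lowest value was WT with no E2, and both Y537S libraries were above all others. LRRC71 had 76 and 70 fragments in Y537S, 65 and 23 in K303R and 56 and 23 in WT, with E2 ratios of 0.966 (0.689 to 1.36) in Y537S, 2.34 (1.44 to 3.95) in K303R and 2.40 (1.46 to 4.09) in WT. At the terminus of TXNRD2, which encodes the mitochondrial thioredoxin reductase, the E2 ratio was 1.03 (0.821 to 1.29) in Y537S, 1.92 (1.40 to 2.65) in K303R and 2.25 (1.58 to 3.24) in WT. In these 3 regions the fragments of WT and K303R with no E2 were the lowest. SMIM38, OXT and TEX35 were also called, with ratios of 1.94 to 2.10 in WT and 1.86 to 2.06 in K303R. The mean over all libraries used for the minimum includes Y537S, so a region weak in WT with no E2 passed more easily where Y537S was high.

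The single gene-end region called higher with E2 in Y537S lay at the start of KCTD6, an adaptor of a ubiquitin ligase. It had 133 and 70 fragments in Y537S, 85 and 75 in K303R and 78 and 64 in WT, E2 before no E2. The Y537S library with E2 stood above the other 5 (E2 ratio 1.69, 1.26 to 2.29).

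Gene-end regions stood higher than other regions in both mutants relative to WT. Their median log2 ratio of Y537S to WT was 0.21 with E2 and 0.20 with no E2, while other regions had −0.01 in both. For K303R to WT it was 0.20 with E2 and 0.24 with no E2, while other regions had −0.02 in both. The difference between gene-end and other medians was 0.22 with E2 and 0.21 with no E2 for Y537S, and 0.22 and 0.26 for K303R. It was above 0 on 22 of 22 chromosomes in each of these 4 comparisons, from 0.03 on chromosome 18 (Y537S, E2) to 0.38 on chromosome 4 (K303R, E2). Chromosomes of the same libraries are not replicates, and both mutants are compared with the same WT libraries. Starts and termini both showed the rise, with medians of 0.20 and 0.17 for Y537S with E2 and of 0.19 and 0.18 for K303R with E2. The rise was not particular to the 1 kb limit. Among the 263 well-covered regions 1000 to 1200 bp from a gene end, the medians were 0.15 and 0.16 for Y537S, E2 before no E2. For K303R they were 0.19 and 0.16. At 800 to 1000 bp they were 0.18 and 0.17 for Y537S and 0.23 and 0.23 for K303R.

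The size of this difference depended on the reference region, and its direction relative to other regions did not in the alternatives that could change it. The local background around the summits moved along with it. Its median log2 ratio at gene ends minus that elsewhere was 0.25 with E2 and 0.21 with no E2 for Y537S, and 0.23 and 0.25 for K303R, and its part in the result was not tested. Centred within 5 Mb windows, the gene-end difference was 0.16 and 0.13 for Y537S and 0.13 and 0.16 for K303R, each with E2 before no E2. Scaled by the lowest local background instead of the median region, the median of all well-covered regions moved by −0.39 to 0.36 on the log2 scale over the 7 comparisons. The gene-end median was then 0.33 and 0.42 for Y537S and 0.12 and −0.15 for K303R, so the absolute direction of K303R to WT with no E2 flipped. Among regions overlapping promoter windows, the third with the lowest GC had medians of 0.18 and 0.19 for Y537S and of 0.17 and 0.22 for K303R. The third with the highest GC had 0.25 and 0.19 for Y537S and 0.20 and 0.28 for K303R.

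**Figure D3:**
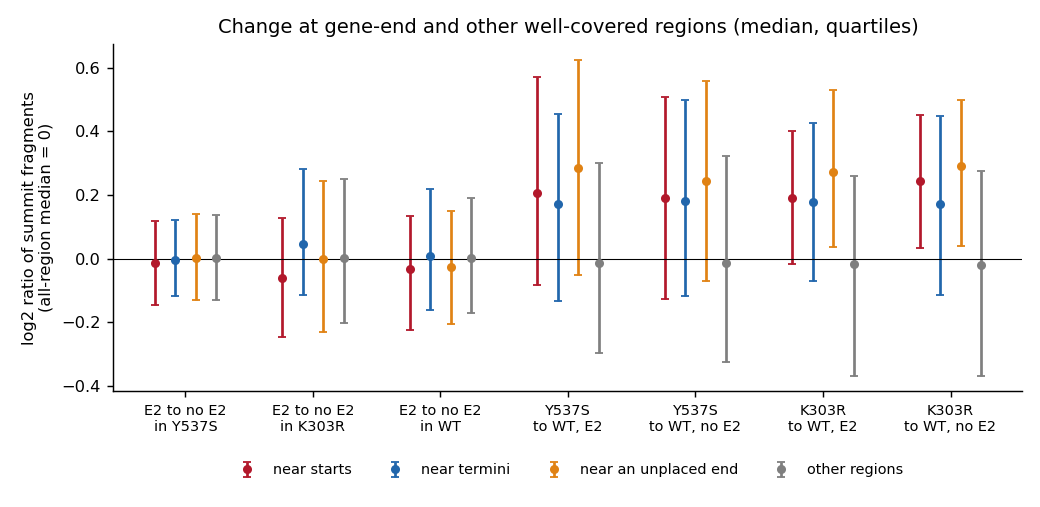
Median log2 ratio of summit fragments (points, y axis) with quartiles (bars) for 7 comparisons of 2 libraries (x axis), centred on the median of all 32800 well-covered regions, for gene-end regions near starts (red), termini (blue) and ends of unknown direction (orange) and for other regions (grey). In the 4 comparisons of a mutant with WT the gene-end medians lie between 0.17 and 0.29 and those of other regions just below 0, while the E2 medians all lie near 0.

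Calls fell mostly on the higher side at gene ends in both mutants. For Y537S to WT with E2, 358 were higher (16.1%) and 59 lower (2.65%), against 7.73% and 6.8% of all well-covered regions. With no E2 322 were higher (14.5%) and 52 lower (2.33%), against 9.63% and 7.48%. For K303R to WT with E2, 197 were higher (8.85%) and 39 lower (1.75%), against 5.22% and 9.03%. With no E2 158 were higher (7.09%) and 34 lower (1.53%), against 4.54% and 6.84%. In both treatments 186 gene-end regions were higher (8.35%, against 4.41% of all) and 28 lower (1.26%, against 3.79%) in Y537S. In K303R 72 were higher (3.23%, against 2.09%) and 12 lower (0.539%, against 4.22%). Scaled by the lowest local background the K303R split with no E2 turned to 20 higher and 137 lower, so the split of calls holds relative to the median region.

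Among gene-end regions higher in Y537S than in WT in both treatments, the first by the smaller of its 2 ratios was SLC4A11, a membrane transporter gene, on chr20:3239773-3240678. It had 141 and 109 fragments in Y537S, 55 and 37 in K303R and 36 and 32 in WT, E2 before no E2. Its ratio to WT was 3.71 (2.56 to 5.51) with E2 and 3.57 (2.39 to 5.48) with no E2. Both Y537S libraries were above the other 4. The terminus of MRPL28, a mitochondrial ribosomal protein gene, had 142 and 128 fragments in Y537S, 100 and 46 in K303R and 39 and 39 in WT. At the start of FARSA, which encodes a subunit of phenylalanyl-tRNA synthetase, Y537S had 94 and 89 fragments, K303R 44 and 25 and WT 29 and 30. TRAF3, a signalling adaptor of the TNF receptor family, had 188 and 154 in Y537S, 89 and 43 in K303R and 59 and 57 in WT. In these 3 regions Y537S was highest in both treatments, with ratios to WT of 2.84 to 3.45. AP1B1, a clathrin adaptor gene, and the overlapping ZFTRAF1 and TMEM276-ZFTRAF1 were the others of the 6, and the ZFTRAF1 region had the highest single ratio, 5.91 with no E2, beside 2.67 with E2. At SLC4A11, FARSA and ZFTRAF1 the K303R and WT libraries averaged under 50 fragments, so these regions passed the minimum through Y537S, where they were high.

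Gene-end regions lower in Y537S were fewer and included one near the outer start of the span of a breast cancer receptor gene. THSD4 was first by the larger of its 2 ratios, 0.252 (0.183 to 0.342) with E2 and 0.245 (0.175 to 0.339) with no E2. CST5, which encodes cystatin D, had 60 and 42 fragments in Y537S, 142 and 105 in K303R and 209 and 192 in WT, E2 before no E2. A region inside PGAP3, a lipid anchor remodelling gene, lay within 1 kb of the outer start of its span and of that of ERBB2. ERBB2 is the receptor tyrosine kinase gene, and starts inside its span were not used. The region had 31 and 31 fragments in Y537S, 166 and 166 in K303R and 135 and 118 in WT (chr17:39686883-39687696). Y537S was the lowest at both, and K303R the highest at PGAP3 and ERBB2. LAMB3, a laminin chain gene of epithelial basement membrane, had 26 and 15 fragments in Y537S, 81 and 81 in K303R and 77 and 99 in WT, with the lowest single ratio of these regions, 0.159 with no E2, beside 0.320 with E2. TRERF1 and RNF144B, both on chromosome 6, followed with ratios of 0.343 to 0.453. Centred within 5 Mb windows, the ratios with no E2 at TRERF1 and RNF144B were 0.563 and 0.649 and were no longer called.

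Higher in K303R in both treatments were regions at KCNK17, ZBTB7A, VWA2, SLC33A2, NDUFS7 with GAMT, and CNNM1. Centred within 5 Mb windows, NDUFS7 with GAMT lost its call with E2. At the terminus of KCNK17, a potassium channel gene, K303R had 113 and 86 fragments, Y537S 27 and 45 and WT 31 and 39, E2 before no E2. Its ratio of K303R to WT was 3.99 (2.66 to 6.15) with E2 and 2.93 (1.98 to 4.39) with no E2. At the terminus of ZBTB7A, a transcriptional repressor gene, the fragments were 143 and 147 in K303R, 114 and 84 in Y537S and 59 and 65 in WT. The start of VWA2, a matrix protein gene, had 153 and 98 in K303R, 120 and 106 in Y537S and 61 and 51 in WT. WT was the lowest at ZBTB7A and VWA2, while at KCNK17 K303R alone stood high. KCNK17 passed the minimum of 50 through its K303R libraries, the other 4 being below it. VWA2 and SLC33A2 were called higher in Y537S too in both treatments, and in all 15 gene-end regions were called higher in both mutants in both treatments (0.674%, against 0.204% of all) and 1 was called lower (0.0449%, against 0.311% of all). Both mutants are compared with the same 2 WT libraries.

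The gene-end regions lower in K303R in both treatments included termini of SPCS3, CYBRD1 and SYT6 and starts of FSHR and FCRLB. SPCS3, a signal peptidase subunit gene, had 31 and 34 fragments in K303R, 118 and 112 in Y537S and 106 and 113 in WT, E2 before no E2. CYBRD1, a ferric reductase gene, had 24 and 19 in K303R, 72 and 51 in Y537S and 65 and 69 in WT. At the start of FSHR, the receptor of follicle-stimulating hormone, K303R had 25 and 21, Y537S 100 and 78 and WT 61 and 71. K303R was lowest at all 3 regions, with ratios to WT of 0.320 to 0.449. RBP3, a retinoid-binding protein gene, was called lower in both mutants in both treatments and is the region of that kind counted above. Within 5 Mb windows SPCS3 had ratios of 0.650 with E2 and 0.811 with no E2 and was no longer called. CYBRD1 lost its call with E2 in those windows.

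**Figure D4:**
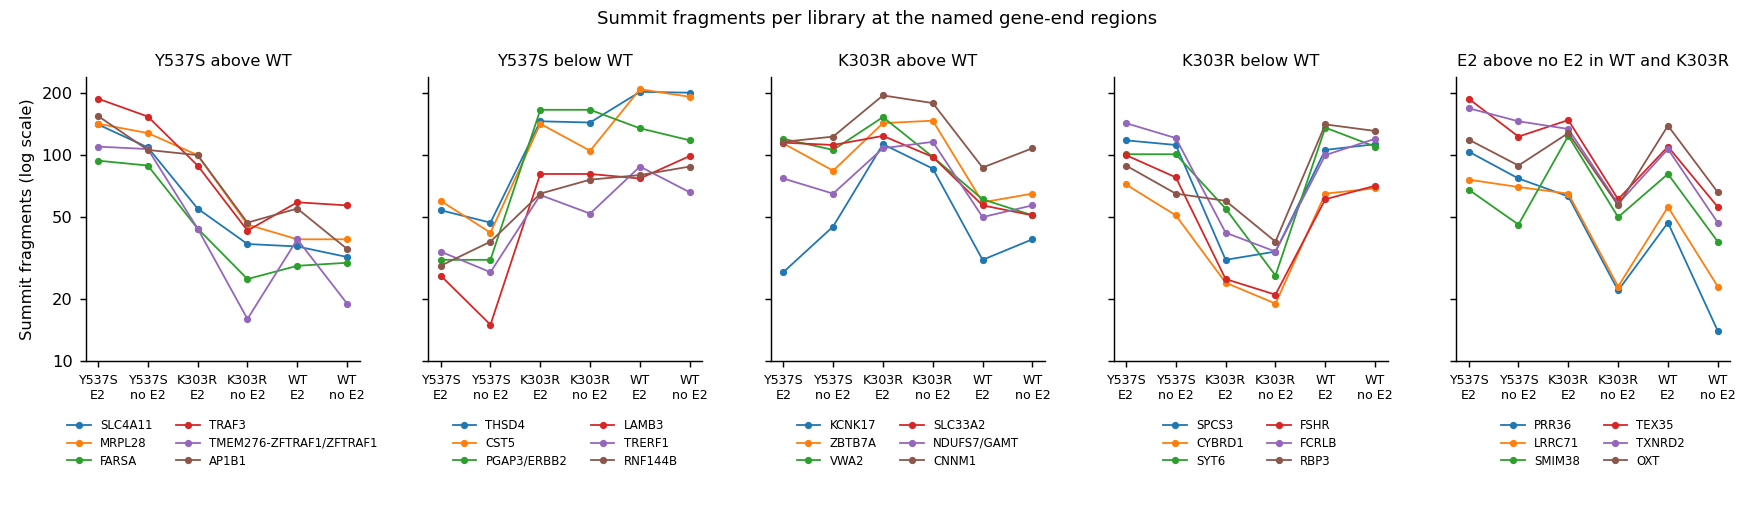
Summit fragments (y axis, log scale) in the 6 libraries (x axis) at the gene-end regions named by rule, 1 panel for each kind of call and 1 line for each region, where lines join the values of a region and imply no order of libraries. Values run from 14 fragments at PRR36 in WT with no E2 to 209 at CST5 in WT with E2.

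Known estrogen receptor target genes had strong gene-end regions where all 6 lists held one. Of 34 listed targets 25 (73.5%) had one and 17 (50%) had one in all 6 lists, where 60.6% and 33.4% of all protein-coding genes did. Over targets with a region in all 6 lists, the median of the strongest such region's mean was 85.0 fragments. It was 33.5 over all genes with a region in all 6 lists. The same median was 109 over 3 neuronal genes and 175 over 7 hepatocyte genes, so such strength was not particular to targets. FKBP4, a chaperone of steroid receptors, had 228 to 255 fragments in Y537S and 304 to 342 in K303R, and 306 in WT with no E2. PDZK1, a scaffold protein gene, had 257 and 208 in Y537S, 260 and 218 in K303R and 277 and 281 in WT, E2 before no E2. TFF1, the secreted trefoil peptide gene, had 172 and 154 in Y537S, 201 and 176 in K303R and 192 and 232 in WT at its own end (chr21:42366209-42367101). All 6 libraries were high at these 3 regions, with E2 ratios of 0.817 to 1.10 in the 3 lines. GREB1, PGR, RARA, TPD52L1, SLC7A5, CXCL12, KCNK5, WFS1 and ZNF217 had no gene-end region, and starts inside their spans were not searched. Of 16 well-covered target regions 0 were called changed with E2 in any line, a count that so few regions would give at the shares of all regions called with E2, 1.67% higher and 0.613% lower in WT. CTSD, a lysosomal protease gene, STC2, a secreted glycoprotein gene, and the chaperone gene HSPB8 are named because they were called between Y537S and WT. Y537S was called higher than WT at CTSD with no E2 and at STC2 with E2. It was called lower than WT at HSPB8 with E2. STC2 had 86 and 74 fragments in Y537S, 32 and 44 in K303R and 28 and 55 in WT, E2 before no E2. The STC2 region thus passed the minimum of 50 through Y537S, where it was high.

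Genes that most cells use often had gene-end regions, and those in all 6 lists were weak. Of ribosomal protein genes 23 of 24 (95.8%) had a region and 12 (50%) had one in all 6 lists. Of heat shock and chaperone genes 20 of 22 (90.9%) had one and 15 (68.2%) had one in all 6, and of housekeeping genes 18 of 20 (90.0%) and 11 (55.0%). Over the genes of each list with a region in all 6 lists, the medians of the strongest such region were 26.5, 26.7 and 21.3 fragments. The region near the start of WDR20 also lies near the outer start of the span of HSP90AA1, the stress-inducible HSP90 gene. It had 148 and 139 fragments in Y537S, 88 and 55 in K303R and 76 and 66 in WT, E2 before no E2. It is named because it was called higher in Y537S than in WT in both treatments. TFRC, the transferrin receptor gene, had 131 and 131 in Y537S, 129 and 129 in K303R and 86 and 144 in WT. WT with E2 was the low library there, and TFRC was the only region of the 15 lists called changed with E2 (0.590, 0.446 to 0.775), a single call beside the 0.613% of all regions called lower in WT.

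Immediate early and luminal genes often had regions near their ends. Over those with a region in all 6 lists, the medians of the strongest such region were 44.2 and 55.3 fragments. Of 22 immediate early genes 19 (86.4%) had one, led by the AP-1 gene JUND with 192 and 191 fragments in Y537S, 225 and 229 in K303R and 192 and 219 in WT. The region shared by the terminus of JUNB, another AP-1 gene, and the start of HOOK2 had 137 and 135 in Y537S, 58 and 59 in K303R and 69 and 77 in WT. This region is named because it was called higher in Y537S than in WT in both treatments. Of 22 luminal epithelial genes 20 (90.9%) had a region, with ELF5 and CDH1 without one. ELF3, an epithelial ETS factor gene, had 346 and 314 in Y537S, 330 and 289 in K303R and 333 and 358 in WT at its terminus. FOXA1, the pioneer factor gene, shares a region with the start of TTC6, with 168 and 151 in Y537S, 104 and 107 in K303R and 141 and 173 in WT. JUND, ELF3 and FOXA1 were called changed in no comparison.

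Coregulator, androgen receptor and basal genes had regions in 50% to 71.4% of cases, where 60.6% of all genes did. Of 18 estrogen receptor coregulator genes 12 (66.7%) had a region, and that of the remodeller gene SMARCA4 was called higher in Y537S than in WT with E2. Of 21 androgen receptor and apocrine genes 15 (71.4%) had one. SPDEF, an ETS factor of secretory epithelium, had 2 regions near its terminus that were called higher in K303R than in WT in both treatments. The one that lay 956 bp away had 129 and 124 fragments in K303R, 43 and 54 in Y537S and 68 and 75 in WT. K303R stood above WT there, while the Y537S ratios to WT, 0.599 with E2 and 0.756 with no E2, were not called. Regions away from gene ends on chromosome 6 had a median log2 ratio of Y537S to WT of −0.34 with E2 and −0.35 with no E2. Of 18 basal and mesenchymal genes 9 (50%) had one, with SNAI1 the strongest at 201 to 252 fragments and KRT5, KRT14, KRT17 and VIM without one.

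Genes of replication and of other cell types filled the rest of the range. Of proteasome genes 20 of 24 (83.3%) had a region, of cell cycle and replication genes 16 of 22 (72.7%), and of replication-dependent histone genes 13 of 20 (65.0%). Hepatocyte genes had one in 10 of 20 cases (50%), neuronal genes in 8 of 18 (44.4%) and immune genes in 8 of 19 (42.1%). Over the 7 hepatocyte genes with a region in all 6 lists, the strongest such region had a median of 175 fragments. SERPINA1, which encodes the protease inhibitor α1-antitrypsin, had 234 and 254 fragments at its start in Y537S, 334 and 328 in K303R and 336 and 330 in WT, E2 before no E2. F2, the prothrombin gene, had 231 and 203 in Y537S, 115 and 74 in K303R and 134 and 114 in WT. Y537S was called lower than WT with E2 at this SERPINA1 region. A second region, near the SERPINA1 terminus, was called lower in Y537S in both treatments. Its ratio to WT was 0.474 with E2 and 0.357 with no E2. F2 is named because Y537S was called higher than WT there in both treatments. Expression was not measured here, and a region at a gene's end does not show that the gene was transcribed.

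**Figure D5:**
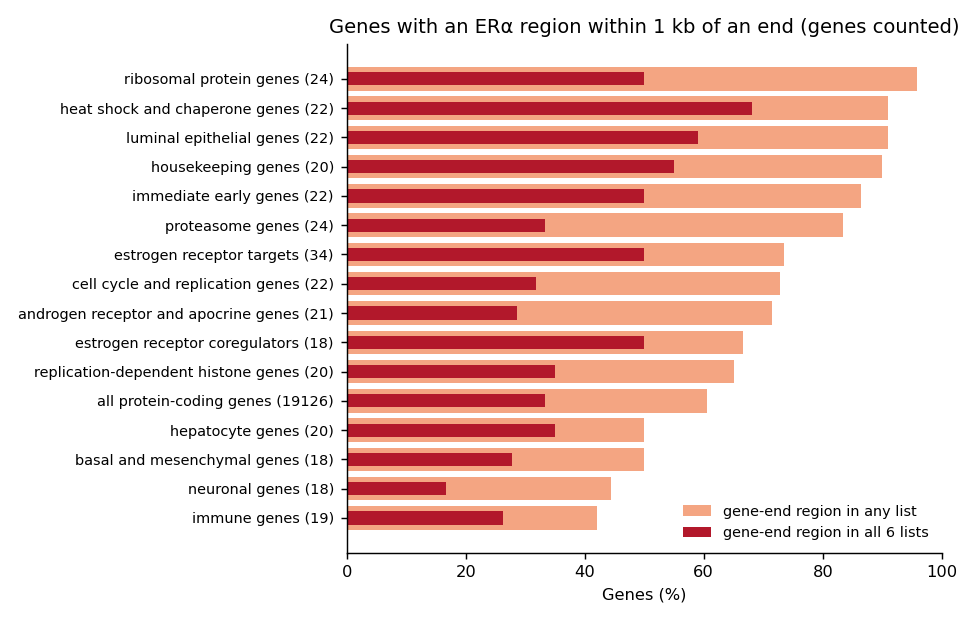
Percentage of genes (x axis) with an ERα region within 1 kb of an end, for 15 gene lists and for all protein-coding genes (y axis, number of genes in parentheses), in any list (light bars) and in all 6 lists (dark bars). Ribosomal protein genes stand at 95.8% and immune genes at 42.1%, with all genes at 60.6%.

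The 1 kb limit fell in a gradual decline. The 1461 regions 800 to 1000 bp from a gene end were in all 6 lists in 40.1% of cases and had a median highest summit of 24 fragments. The 1222 regions 1000 to 1200 bp away had 41.2% and 26.5 fragments. Along the genome the share of gene-end regions was lowest on chromosome 13, at 4.93% of merged regions, and highest on chromosome 19, at 22.8%.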

How the data were processed

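ERα ChIP-seq peak lists of 6 libraries, 1 per group, were analysed as the authors deposited them. Per the submitters' processing notes, the tools were MACS2, Bowtie2, Picard, SAMtools and bedtools and the build was hg38. Tool versions, read filters, the peak threshold and the control were not given in the sources used here. The authors' lists hold, for each peak, its fold (the ratio of summit to local signal), the −log10 of its p-value and of its q-value, and a score, which went unused. The deposited −log10 q-value served in 1 alternative (a minimum of 5).

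Sequencing depth is unknown. Summit fragments and local background were recovered by solving the fold, with a pseudocount of 1, and the Poisson −log10 p of the authors' lists, and matched the deposited p within 0.01% for 100% of peaks. The steps were tested on simulated data. Lists were merged at 1 bp of overlap, and gene spans, strands and promoter sequences came from RefSeq (GRCh38.p14), with a strand for 15101 of 19126 genes. Calls, groups and the minimum of 50 fragments are defined in the text. Changes with E2 over 3 lines were tested by an exact sign-flip test, and regions were not treated as replicates. The alternatives were a window of 500 bp, minimums of 25 and 100 fragments, scaling by the lowest local background, centring within 5 Mb, a stricter q-value, the highest summit in place of the midpoint, merging by a larger overlap and, added after seeing the data, fragments less the local background.

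Named genes are the nearest ends of the 10 strongest gene-end regions, of up to 6 called in each direction per mutant in both treatments and with E2 in WT and K303R, of up to 3 each way with E2 in Y537S, and of up to 3 per gene list, with up to 6 promoter windows. CTSD, STC2, HSPB8, HSP90AA1 with WDR20, JUNB with HOOK2, RAB25, TFAP2A, TJP3, F2 and the second SERPINA1 region were added because they were called. Others are said to be chosen after seeing values. Members, rules and the 15 gene lists (321 of 327 genes on chromosomes 1 to 22) were chosen with earlier results of these data known. Python 3.11.15, NumPy 2.4.6, pandas 2.3.3 and SciPy 1.17.1 were used. X-linked genes were not analysed here, and some named regions are not reported here.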

Additional observations from a re-analysis of the deposited data

Results flagged for a closer look

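Of the regions named for a call between a mutant and WT, 5 had the mutants on opposite sides of WT in both treatments, and these differences between mutants were not tested. The ratio to WT is given with E2 before no E2. At PGAP3 and ERBB2 it was 0.218 and 0.276 for Y537S and 1.35 and 1.87 for K303R. LAMB3 had 0.320 and 0.159 for Y537S and 1.15 and 1.09 for K303R. At SPCS3 it was 1.05 and 1.04 for Y537S and 0.320 and 0.399 for K303R. FSHR had 1.55 and 1.15 for Y537S and 0.449 and 0.393 for K303R, and FCRLB had 1.35 and 1.06 for Y537S and 0.460 and 0.376 for K303R. Of these, the Y537S ratios at SPCS3, FSHR and FCRLB and the K303R ratios at LAMB3 passed no call, and K303R was called at PGAP3 and ERBB2 with no E2 only. Regions named for other reasons were not screened in this way, and SPDEF, with 0.599 and 0.756 for Y537S and 2.08 and 2.19 for K303R, is among the others of this kind.

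At 2 of the regions named for a call with E2, the E2 ratio of 1 line lay on the other side of 1 from those of the other lines, again with no test of the difference. LRRC71 had an E2 ratio of 0.966 in Y537S, 2.34 in K303R and 2.40 in WT. KCTD6 had 1.69 in Y537S, 0.940 in K303R and 1.20 in WT.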

How the results depend on the processing

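Each result was recomputed under up to 9 alternatives. No called ratio of a named region changed sign, but scaling by the lowest local background turned the split of calls of K303R to WT with no E2 to 20 higher and 137 lower and its gene-end median to −0.15. Beyond the E2 and no E2 libraries of each line, no paired analysis was possible because there is 1 library per group and the labels carry no replicate numbers. The gene-end difference in the log2 ratio to WT stayed above 0 in all the alternatives that could change it. Scaling by the lowest local background shifts gene-end and other regions alike, so it could not change this difference. For Y537S it was 0.149 with E2 and 0.156 with no E2 at a minimum of 100 fragments, and 0.160 and 0.129 within 5 Mb windows. For K303R it was 0.157 and 0.215 at 100 fragments, 0.243 and 0.288 at 25, 0.127 and 0.161 within 5 Mb windows, and 0.192 with E2 for a window of 500 bp. Placing regions by their highest summit, merging peaks by a larger overlap, and a stricter q-value moved none of the counts of calls by over 1.5 times. Subtracting the local background gave 0.22 and 0.21 for Y537S and 0.22 and 0.26 for K303R.

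Fewer regions are tested with a window of 500 bp (1358 gene-end regions) or at least 100 fragments (1038), and more with at least 25 (3905), which by itself moves the counts of calls. With 500 bp, calls with E2 were 13 higher and 6 lower in WT, 20 and 8 in K303R, 0 higher in Y537S, and 5 higher in WT and K303R. Calls of Y537S to WT were 222 higher and 27 lower with E2, 186 and 27 with no E2, and 108 and 14 in both treatments. Those of K303R to WT were 111 and 22, 96 and 18, and 44 and 7. At 100 fragments, calls with E2 were 19 higher and 4 lower in WT, 11 and 4 in K303R, 0 higher in Y537S, and 4 higher in both WT and K303R. Calls of Y537S to WT were 141 and 24 with E2, 143 and 24 with no E2, and 82 and 12 in both, and those of K303R to WT were 68 and 12, 54 and 16, and 26 and 5. At 25 fragments, calls with E2 were 19 lower in WT, 60 higher and 26 lower in K303R, 2 higher and 2 lower in Y537S, and 16 higher and 1 lower in both WT and K303R, and 244 were higher in K303R than in WT with no E2.

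Scaling by the lowest local background shifts all ratios of a comparison together. It gave 263 higher and 1 lower with E2 in K303R, 5 lower in WT, and 34 higher in both. For Y537S to WT it gave 35 lower with E2, 594 higher and 21 lower with no E2, and 351 and 11 in both treatments. For K303R to WT in both treatments it gave 15 and 36. Within 5 Mb windows, 20 were lower with E2 in K303R, 1 in Y537S and 2 in both WT and K303R, and 123 were higher in Y537S and 46 in K303R in both treatments, with 101 higher in K303R with no E2. The cause of these shifts was not tested. Of named regions, TRERF1 lost its call with no E2 under background scaling (0.501) and in 5 Mb windows, as did RNF144B, NDUFS7 with GAMT (1.72 with E2), SPCS3 and CYBRD1 (0.462 with E2) in 5 Mb windows.

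Depth limits the rest. The 11478 gene-end regions below the minimum or missing from a list could not be compared by ratio, and listing depends on each list's own unknown limit.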

Other observations

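Listed genes with a gene-end region differed little in number between libraries in most lists. Over all protein-coding genes they were 46.9% and 49.0% in Y537S, 45.1% and 49.4% in K303R and 45.7% and 49.6% in WT, each with E2 before no E2. Immediate early genes were 11 and 14 of 22 in Y537S, 13 and 15 in K303R and 15 and 16 in WT. Ribosomal protein genes were 18 and 17 of 24 in Y537S, 16 and 22 in K303R and 16 and 15 in WT. Estrogen receptor targets were 20 and 22 of 34 in Y537S, 20 and 25 in K303R and 21 and 23 in WT. Proteasome genes were 16 and 15 of 24 in Y537S, 14 and 11 in K303R and 11 and 16 in WT. K303R with no E2 thus had the most ribosomal protein genes and, with WT with E2, the fewest proteasome genes. These differences between counts were not tested.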
